A study of Mus musculus with 8 samples.

Results

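The 43 genes described here encode proteins that act during DNA replication or cell division. They were chosen by name for their known roles, with earlier results of these data known. The list has 25 genes of mitosis, 17 genes of DNA replication and nucleotide supply, and Stmn1, which was kept in neither group. All 43 had a row in each of the 8 count matrices, out of 19024 gene symbols. They were followed through the malignant, lymphoid, myeloid and stromal cells of MB49 tumors grown in mice with or without the autophagy gene Atg7.

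A cell that divides first copies its genome and then separates the copies. The helicase built from the Mcm proteins and Cdc45 opens DNA, the sliding clamp Pcna holds the polymerases, and Rrm1, Rrm2, Tyms, Tk1 and Dut supply nucleotides free of uracil. In mitosis, cyclin B with Cdk1 drives entry, Cenpa-containing chromatin and Cenpf connect chromosomes to the spindle, Birc5 and Aurkb form the chromosomal passenger complex, and Ube2c feeds the anaphase-promoting complex. Transcription of many mitotic genes is known to run through CHR and CCAAT elements bound by the DREAM and MuvB complexes and NF-Y, and that of many replication genes through E2F sites. In a tumor these transcripts are found in cancer cells and also in immune cells that divide, such as activated CD8 T cells.

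The promoters of 6 of these genes are shown because the differences described here turn on them (Cenpf, Cenpa, Ube2c, Pclaf) or because they stand for the mitosis and replication groups (Mki67, Mcm6). Each covers the 300 bases from 250 before to 50 after the RefSeq transcript start on GRCm38.p6, read on the strand of the gene. Capitals mark the CHR letters TTTGAA, the CCAAT box CCAAT, and the E2F letters TTTCCCGC, TTTGGCGC, TTTCGCGC or TTTGCCGC, searched on both strands.
Cenpf, chr1:189688037-189688336, minus strand: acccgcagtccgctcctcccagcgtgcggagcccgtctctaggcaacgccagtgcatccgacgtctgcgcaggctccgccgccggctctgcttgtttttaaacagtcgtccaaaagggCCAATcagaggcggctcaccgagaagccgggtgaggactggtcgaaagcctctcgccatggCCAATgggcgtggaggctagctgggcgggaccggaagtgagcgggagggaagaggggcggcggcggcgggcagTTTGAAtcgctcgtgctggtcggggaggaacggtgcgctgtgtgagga
Mki67, chr7:135716330-135716629, minus strand: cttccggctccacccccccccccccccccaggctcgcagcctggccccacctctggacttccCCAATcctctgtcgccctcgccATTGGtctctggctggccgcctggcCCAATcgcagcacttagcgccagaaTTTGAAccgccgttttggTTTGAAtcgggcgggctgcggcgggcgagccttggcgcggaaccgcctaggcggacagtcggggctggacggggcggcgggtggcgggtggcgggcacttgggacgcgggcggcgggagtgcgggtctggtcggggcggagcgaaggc
Cenpa, chr5:30666636-30666935, plus strand: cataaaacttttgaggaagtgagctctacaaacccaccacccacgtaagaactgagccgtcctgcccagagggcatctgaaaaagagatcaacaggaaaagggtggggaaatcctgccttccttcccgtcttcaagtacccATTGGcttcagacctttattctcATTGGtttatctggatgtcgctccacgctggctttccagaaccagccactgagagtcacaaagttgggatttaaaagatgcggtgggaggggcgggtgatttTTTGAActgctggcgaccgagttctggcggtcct
Ube2c, chr2:164769679-164769978, plus strand: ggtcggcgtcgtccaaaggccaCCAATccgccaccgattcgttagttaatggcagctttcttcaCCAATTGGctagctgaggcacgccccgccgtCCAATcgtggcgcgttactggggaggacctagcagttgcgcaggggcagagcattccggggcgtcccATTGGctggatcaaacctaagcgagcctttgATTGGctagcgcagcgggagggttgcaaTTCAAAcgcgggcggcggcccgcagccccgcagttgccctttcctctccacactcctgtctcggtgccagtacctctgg
Pclaf, chr9:65890073-65890372, plus strand: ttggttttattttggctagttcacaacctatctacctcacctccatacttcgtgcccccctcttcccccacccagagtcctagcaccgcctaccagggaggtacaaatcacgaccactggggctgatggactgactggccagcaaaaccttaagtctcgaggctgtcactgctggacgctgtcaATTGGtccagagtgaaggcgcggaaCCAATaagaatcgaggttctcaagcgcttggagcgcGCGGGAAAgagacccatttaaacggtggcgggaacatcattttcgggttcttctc
Mcm6, chr1:128359656-128359955, minus strand: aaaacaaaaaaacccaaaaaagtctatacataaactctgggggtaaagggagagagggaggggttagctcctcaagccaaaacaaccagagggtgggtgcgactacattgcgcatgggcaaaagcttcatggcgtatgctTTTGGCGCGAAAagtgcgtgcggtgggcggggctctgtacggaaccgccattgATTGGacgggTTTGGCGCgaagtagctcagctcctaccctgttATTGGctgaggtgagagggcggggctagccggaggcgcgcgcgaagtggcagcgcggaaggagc

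RefSeq promoters were matched for 36 of the 43 genes, 21 of mitosis and 15 of replication. A gene was counted when any of its promoter entries held a match. The CHR letters were found in 16 of the 21 mitosis genes and in 2 of the 15 replication genes, against 20.2% of all 27025 mouse genes with promoters of the same length. A CCAAT box was found in 19 of the 21 and 10 of the 15, against 41.1% of all genes. The E2F letters were found in 1 of the 21 and 6 of the 15, against 2.6% of all genes. Of the promoters printed here, those of Cenpf, Mki67, Cenpa and Ube2c hold CHR and CCAAT letters and no E2F letters, and those of Pclaf and Mcm6 hold CCAAT and E2F letters and no CHR. A pair of CCAAT matches on opposite strands overlaps in Ube2c and a pair of E2F matches in Mcm6. A match describes these letters and is not evidence that a factor binds.

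The mice with deleted Atg7 were C57BL/6 UbcreERT2/+;Atg7f/f, called deleted hosts here (4 libraries, numbered 3, 4, 7 and 8). The controls were C57BL/6 UbcreERT2/+;Atg7+/+, called wild-type hosts (4 libraries, numbered 1, 2, 5 and 6). All carried the tamoxifen-inducible Cre under the ubiquitin promoter, so that deletion was not limited to a cell type, and all received tamoxifen daily for 4 days. MB49, a male mouse urothelial cancer line of the C57BL/6 background, was injected under the skin of both flanks 1 week later, giving 2 tumors per mouse, which grew for 3 weeks. The injected cells did not come from the Cre mice. Libraries are not tied to mice in the labels, so that 2 libraries of a genotype may share an animal and p-values may be too small. Tumors were dissociated, strained and passed through a density gradient, which can change the shares of cell types, before 10x 5' libraries were made.

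The 4 deleted-host libraries held 12367 cells and 4371773 to 25065056 UMIs each, and the 4 wild-type libraries 17129 cells and 22224440 to 59235799 UMIs each. The median depth was 1733 to 3860 UMIs per cell in deleted hosts and 6281 to 9213 in wild-type hosts. Shares of cells were therefore taken after thinning each cell to 1000 UMIs, leaving out 2098 cells of deleted and 1900 of wild-type hosts below that depth. Libraries 1 to 4 and libraries 5 to 8 carried distinct sets of cell barcodes, each with both genotypes, and pairs of libraries shared 0 to 46 barcodes. Atg7 itself was at 0.103 ± 0.0593 UMIs per 10000 in monocyte/macrophage-like cells of deleted hosts and 0.264 ± 0.118 in those of wild-type hosts (SD, n = 4 each), with ranges of 0.0224 to 0.150 and 0.155 to 0.390 that did not overlap. In T-like cells it was at 0.189 ± 0.0533 in deleted and 0.167 ± 0.0679 in wild-type hosts, and in fibroblast-like cells at 0.0582 ± 0.00469 and 0.0676 ± 0.0464. The place of the deleted exons relative to the 5' reads is not given in the sources used here, so these levels check the labels only weakly.

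Cells were classed by clustering without 148 cell cycle genes, so that the classes do not rest on the genes described. Each class was named from marker genes. Malignant-like clusters had 5 of 10 urothelial markers in at least 10% of their cells, T-like clusters 6 to 9 of 10 and the NK-like cluster 8 of 9. CD8 T cells are those T-like cells that held a UMI of either Cd8 gene and none of Cd4 or Foxp3, and CD4 T cells have a Cd4 UMI and none of Foxp3, Cd8a or Cd8b1. A level below is the mean over cells of UMIs per 10000 UMIs of the cell, and a library enters a class with at least 20 cells of 1000 UMIs or more. Library 7 of the deleted hosts had 14 CD8 T cells and is absent from that class. Library 1 of the wild-type hosts had 5 CD4 T, 10 NK-like and 15 dendritic-like cells and is absent from those classes.

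Malignant-like and CD8 T cells held the cell cycle transcripts at their highest mean levels. Of the 43 genes, 22 had their highest class mean in malignant-like cells, 20 in CD8 T cells and 1, Pcna, in CD4 T cells, among 8 classes that share no cells. Genes highest in malignant-like cells included Ube2c, at 1.03 against 0.735 UMIs per 10000 in CD8 T cells, and Cdc45, at 0.387, with every other class at or below 0.095. Genes highest in CD8 T cells included Pclaf, the Pcna-associated factor, at 1.39 against 0.579 in malignant-like cells, Stmn1, a microtubule-destabilizing protein, at 1.64 against 0.593, and Mcm6, at 1.24 against 0.447. These are levels of the same gene in different classes, averaged over libraries of both genotypes. Within a genotype the counts differed. In deleted hosts 31 of the 43 genes had their highest class mean in CD8 T cells and 9 in malignant-like cells, and in wild-type hosts 17 had it in CD8 T cells and 23 in malignant-like cells. Cenpf was at 0.112 in malignant-like and 0.264 in CD8 T cells of deleted hosts, and at 0.640 in malignant-like and 0.386 in CD8 T cells of wild-type hosts.

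**Figure D1:**
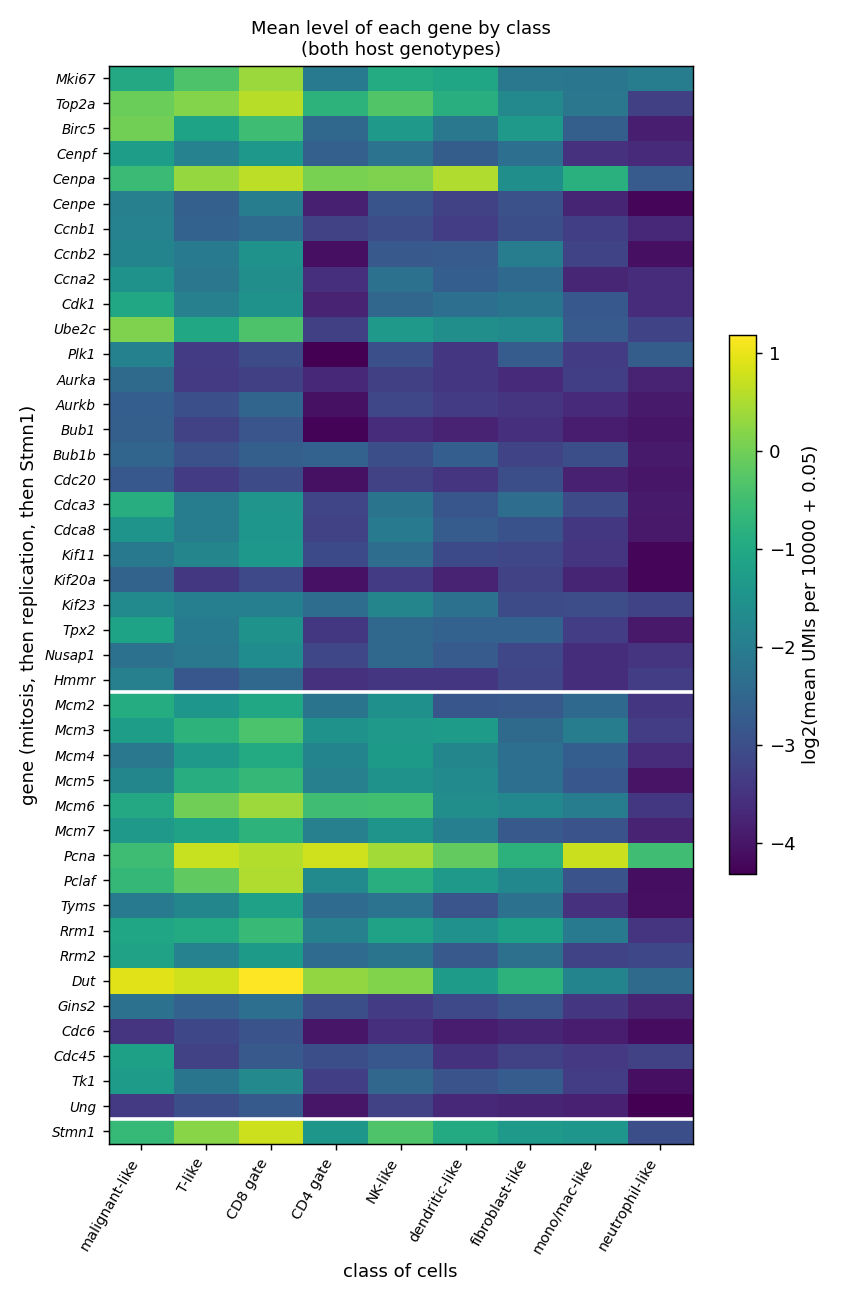
Mean level of each of the 43 genes (rows) in each class of cells (columns), as log2 of mean UMIs per 10000 plus 0.05 over the libraries of both genotypes. The malignant and CD8 T columns are brightest for most genes, while Pcna and Cenpa extend into the other lymphoid and myeloid columns (Pcna at 1.62 and Cenpa at 0.513 in monocyte/macrophage-like cells).

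Mki67, the protein that coats mitotic chromosomes, was compared between classes as a mean over libraries of both genotypes. Its level was 1.23 in CD8 T cells, 0.735 in all T-like cells, 0.474 in NK-like, 0.450 in malignant-like and 0.421 in dendritic-like cells. It was 0.312 in T-like cells outside the CD8 gate, 0.199 in neutrophil-like, 0.193 in CD4 T, 0.179 in fibroblast-like and 0.173 in monocyte/macrophage-like cells. Compared within libraries, Mki67 in CD8 T cells exceeded that in malignant-like cells by 0.772 ± 0.485 UMIs per 10000 (SD, n = 7) and was higher in 7 of 7 libraries. The exact two-sided sign-flip test gave p = 0.0156, the smallest that 7 libraries allow, and 0.0879 adjusted over the 9 classes compared. T-like, monocyte/macrophage-like and fibroblast-like cells had the same adjusted p, no class passed, and neighbouring classes were not tested against each other. NK-like and dendritic-like cells differed from malignant-like cells by 0.0323 ± 0.412 and -0.0204 ± 0.580. The order was not the same in both genotypes. Mki67 averaged 0.594 in dendritic-like and 0.235 in malignant-like cells of deleted hosts, against 0.191 in dendritic-like and 0.666 in malignant-like cells of wild-type hosts.

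The genes differed in how far their transcripts were shared with the rest of the programme. In T-like cells, 2.9% of Pclaf UMIs, 8.3% of Birc5 UMIs and 11.8% of Ube2c UMIs lay in cells with fewer than 2 UMIs of the other 42 genes, whereas 56.3% of Cenpa and 57.8% of Pcna UMIs did. Such cells were 73.5 to 76.7% of T-like cells, so Cenpa and Pcna, which also serves DNA repair, were spread widely over cells with little else of the programme. In monocyte/macrophage-like cells the same share was 86.5% for Cenpa and 91.5% for Pcna, with 90.2 to 94.1% of cells in that category. In malignant-like cells it was 15.6% for Cenpa, 30.8% for Pcna, 54.7% for Cdc45 and 3.8% for Nusap1, a spindle-microtubule protein, with 55.7 to 59.2% of cells in that category.

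A cell was counted as holding mitosis transcripts when it had 2 or more UMIs of the 25 mitosis genes at 1000 UMIs, and likewise for the 17 replication genes. Neutrophil-like cells, which have left the cell cycle, gave the background. Their mitosis share was 0, 0 and 0.529% in libraries 3, 4 and 8 of the deleted hosts, and 6.25, 4.08, 0 and 0% in the wild-type hosts, a mean of 1.55 ± 2.55% over the 7 libraries. Before thinning, the median depth by library was 1209.5 to 2093 UMIs in neutrophil-like cells and 1523 to 4098 in monocyte/macrophage-like cells of 1000 UMIs or more. The limit that a count of 0 allows is given for counting error only.

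**Figure D2:**
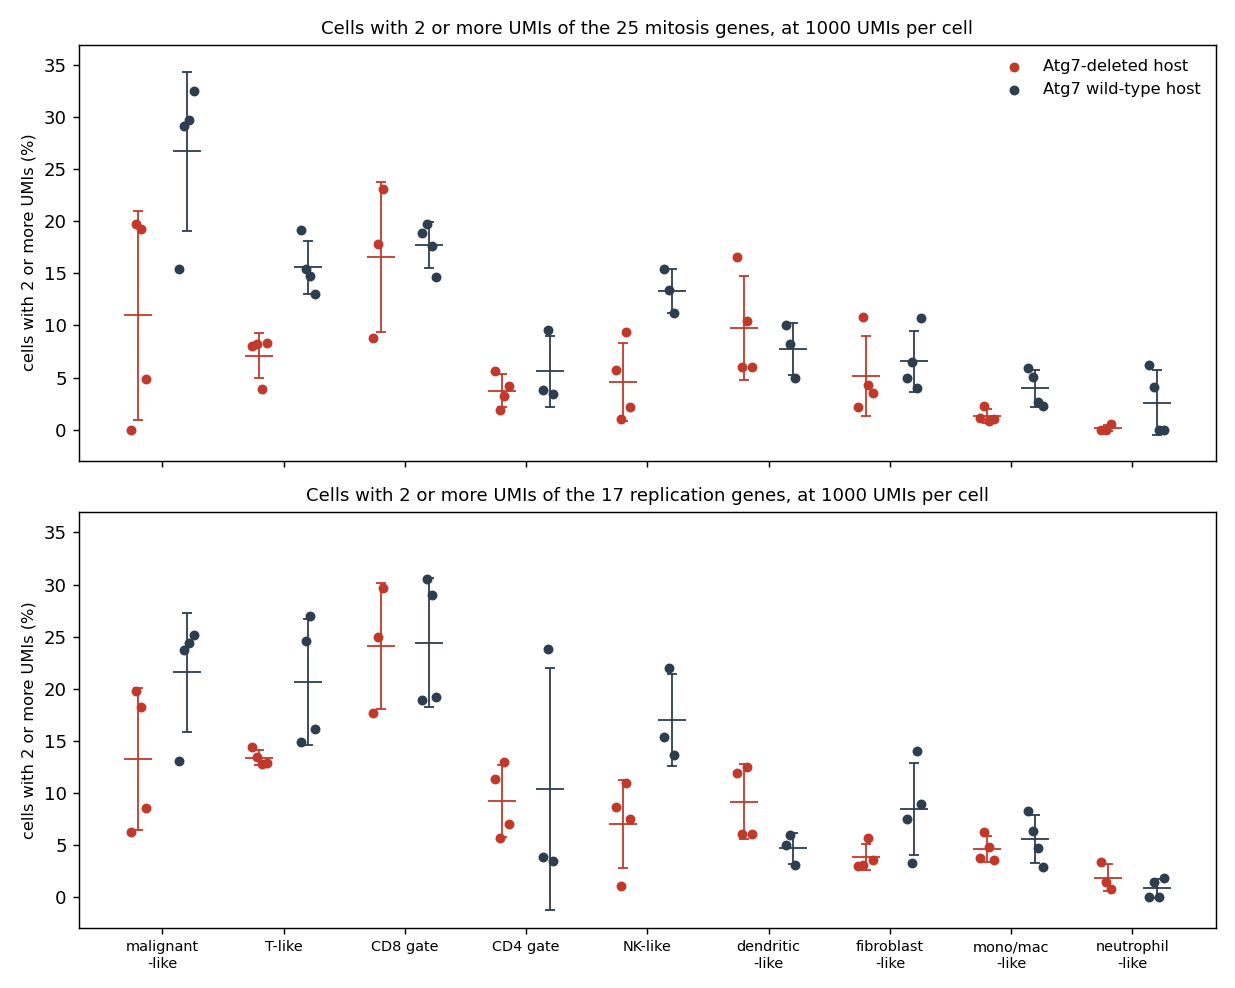
Percent of cells with 2 or more UMIs of the mitosis genes (one panel) and of the replication genes (the other), after thinning to 1000 UMIs per cell, for each class and library, with deleted hosts left of wild-type hosts. In T-like cells the deleted libraries lie at 3.92 to 8.33% for mitosis and the wild-type libraries at 13.1 to 19.1%, while in CD8 T cells they overlap at 8.82 to 23.1% and 14.7 to 19.8%.

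In malignant-like cells, fewer cells of deleted hosts than of wild-type hosts held mitosis transcripts on average, but the libraries overlapped. The share was 0, 19.8, 19.2 and 4.88% in deleted-host libraries 3, 4, 7 and 8, and 15.4, 29.2, 29.8 and 32.6% in wild-type libraries 1, 2, 5 and 6. Deleted libraries 4 and 7 lay between the lowest wild-type library and the other wild-type ones, and libraries 3 and 8 lay below all of them. The mean was 11.0 ± 10.1% in deleted and 26.7 ± 7.67% in wild-type hosts (SD, n = 4 each). The deleted libraries held 32, 96, 104 and 82 malignant-like cells, so 0 of 32 allows a share of up to 9.38%, against 1185 to 4064 cells in the wild-type libraries. The difference was -12.4 percentage points within libraries 1 to 4 and -19.1 within libraries 5 to 8. Replication shares were 6.25, 19.8, 18.3 and 8.54% in deleted and 13.0, 23.7, 24.3 and 25.1% in wild-type hosts, also overlapping.

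Of the mitosis genes in malignant-like cells, Cenpf fell past the test in the fit of log2 levels. Cenpf (mm10, chr1:189640606-189688086, minus strand) was at 0, 0.0646, 0.355 and 0.0288 UMIs per 10000 in deleted hosts and 0.481, 0.683, 0.691 and 0.705 in wild-type hosts. Every deleted library lay below every wild-type one, with library 7 closest. The log2 difference was -1.38 (SE 0.26, limma adjusted p = 0.0384). Of 24 cell cycle genes that passed the filter on low levels, 1 was called lower, where 0.43% of the 4654 genes tested were called in either direction and 0.387% lower. With a barcode set term 5 genes (Cdc45, Cdca3, Cenpa, Cenpf and Kif23) were called, where 2.75% of all genes were. On means of the deposited log values, where cells of every depth enter, 10 were called, where 17.4% of all genes were. In the fit of levels without that term, Cenpf lost its call on leaving out deleted library 4 or 8 or any 1 wild-type library, with a log2 difference of -1.66 to -1.24 and adjusted p between 0.00665 and 0.195 over the 8 omissions.

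Other mitosis genes in malignant-like cells lay in the same direction without passing. Kif23, a kinesin of the central spindle, was at 0, 0.193, 0.147 and 0.0363 in deleted and 0.307, 0.405, 0.552 and 0.415 in wild-type hosts (log2 -0.99, limma adjusted p = 0.0962). Mki67 was at 0, 0.516, 0.391 and 0.0349 in deleted and 0.512, 0.872, 0.652 and 0.626 in wild-type hosts (log2 -1.07, adjusted p = 0.211). Kif23 did not overlap between genotypes, and Mki67 overlapped in 1 library, number 4. The log2 difference was below 0 for 12 of 12 mitosis genes tested, with a median of -1.03, and for 23 of all 24 cell cycle genes, with a median of -0.73. Among all genes tested, 58.8% were below 0 and the median was -0.07.

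Replication genes in malignant-like cells did not pass. Cdc45 was at 0.300, 0.270, 0.238 and 0.117 in deleted and 0.550, 0.691, 0.499 and 0.429 in wild-type hosts (log2 -0.72, limma adjusted p = 0.158). Pcna went the other way in its mean, with 0.489, 1.15, 0.877 and 0.385 in deleted and 0.346, 0.390, 0.892 and 0.650 in wild-type hosts (log2 0.23). Cdc45 did not overlap between genotypes and Pcna did. Of 11 replication genes tested, none was called and 10 lay below 0, with a median of -0.48. Lower without overlap were 5 of the 24 genes (Cenpf, Kif23, Cdc45, Mcm3 and Mcm7), against 5.97% of all genes tested. Mcm7 shares exon sequence with the microRNA genes Mir25 and Mir93.

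The malignant-like cells of the 2 genotypes were not alike in other measures. Cells with 3 or more UMIs of macrophage markers were 15.6, 10.4, 0 and 7.32% in deleted and 2.78, 0.977, 0.148 and 0.717% in wild-type hosts. Their median depth was 3211, 3260.5, 15864 and 9438.5 UMIs in deleted and 16184, 14860, 9733.5 and 16720.5 in wild-type hosts. Without the cells holding macrophage markers, Cenpf differed by -1.37 on the log2 scale (limma adjusted p = 0.0480) and the mitosis share by -16.3 percentage points. The makeup by cluster also differed: cluster 1 held 54.5 ± 18.9% of malignant-like cells in deleted and 18.0 ± 11.6% in wild-type hosts. Within cluster 1 the mitosis share was 26.1, 17.9 and 4.26% in deleted libraries 4, 7 and 8 and 54.1, 45, 14.1 and 23.9% in wild-type libraries 1, 2, 5 and 6, and these overlapped.

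T-like cells of deleted hosts held fewer cells with mitosis transcripts, with no overlap between genotypes. The share was 8.00, 8.19, 3.92 and 8.33% in deleted and 19.1, 15.4, 14.8 and 13.1% in wild-type hosts. Every deleted library lay below every wild-type one, and deleted library 7 lay lowest. The mean was 7.11 ± 2.13% in deleted and 15.6 ± 2.57% in wild-type hosts (SD, n = 4 each), from 102 to 396 and 47 to 360 cells per library. The difference was -9.17 percentage points within libraries 1 to 4 and -7.78 within libraries 5 to 8. Replication shares were 14.4, 13.5, 12.7 and 12.9% in deleted and 14.9, 24.5, 27.0 and 16.1% in wild-type hosts, without overlap but with wild-type library 1 close to the deleted range.

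By gene, 2 mitosis genes, 2 replication genes and Stmn1 fell in T-like cells of deleted hosts. Ube2c was at 0.252, 0.179, 0.0338 and 0.246 UMIs per 10000 in deleted and 0.759, 0.624, 0.708 and 0.744 in wild-type hosts. Every deleted library lay well below the wild-type range, and the log2 difference was -1.20 (SE 0.20, limma adjusted p = 0.0110). Birc5 was at 0.0806, 0.187, 0.201 and 0.348 in deleted and 0.617, 0.705, 0.404 and 0.718 in wild-type hosts, without overlap (log2 -0.94, SE 0.21, limma adjusted p = 0.0315). Ube2c shares exon sequence with Tnnc2 on the opposite strand, and whether counting used the strand is not given in the sources used here.

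Pclaf was at 0.286, 0.442, 0.387 and 0.630 in deleted and 1.06, 1.05, 1.37 and 1.52 in wild-type hosts (limma adjusted p = 0.0110). Dut, which removes dUTP before it can enter DNA, was at 0.990, 0.919, 0.926 and 1.29 in deleted and 2.08, 2.80, 2.33 and 1.98 in wild-type hosts (log2 -0.99, limma adjusted p = 0.0148). Neither overlapped between genotypes, and the deleted libraries lay closer together than the wild-type ones for Dut. Stmn1 was at 0.460, 0.566, 0.564 and 0.686 in deleted and 1.83, 2.18, 1.61 and 0.913 in wild-type hosts, without overlap and with wild-type library 6 lowest of its group (log2 -1.16, SE 0.23, limma adjusted p = 0.0171). Stmn1 shares exon sequence with the small RNA gene Gm23634 on its strand.

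On mm10 with GENCODE M21, Ube2c lies at chr2:164769898-164778822 and Dut at chr2:125247190-125258608, Birc5 at chr11:117849251-117855743, Pclaf at chr9:65890237-65903266 and Stmn1 at chr4:134468320-134473843, all on the plus strand.

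Of 16 cell cycle genes tested in T-like cells, 5 were called, all lower, where 2.67% of 4791 genes were called in either direction and 0.689% lower. The log2 difference was below 0 for 15 of the 16, with a median of -0.55, against 38.6% and a median of 0.10 over all genes tested. Lower without overlap were 6 of the 16, against 3.05% of all genes. The sixth was Cenpa, at 0.897, 0.768, 0.456 and 1.15 in deleted and 1.40, 1.29, 1.69 and 1.80 in wild-type hosts (limma adjusted p = 0.0760). Mki67 was at 0.728, 0.539, 0.310 and 0.556 in deleted and 0.880, 1.39, 0.801 and 0.670 in wild-type hosts (limma adjusted p = 0.167). Pcna was the exception in direction, at 1.21, 1.37, 2.96 and 1.86 in deleted and 0.948, 0.903, 2.17 and 1.41 in wild-type hosts (log2 0.38, limma adjusted p = 0.473), and it overlapped. With a term for the barcode set 7 genes were called, Cenpa and Top2a added, where 9.85% of all genes were. On leaving out 1 library, 3 to 5 were called, with 3 on leaving out deleted library 4 or wild-type library 1. Ube2c and Pclaf passed in all 8 omissions, Dut was at adjusted p = 0.0501 in limma without deleted library 4, Stmn1 at 0.0593 without wild-type library 1, and Birc5 passed only without deleted library 8 or wild-type library 5 (0.0259 to 0.0930 over the 8). None was called without the filter on low levels (0% of all genes), 2 (Pclaf and Stmn1) after thinning (0.924% of all genes) and 1 (Pclaf) on means of the deposited log values (1.48% of all genes).

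**Figure D3:**
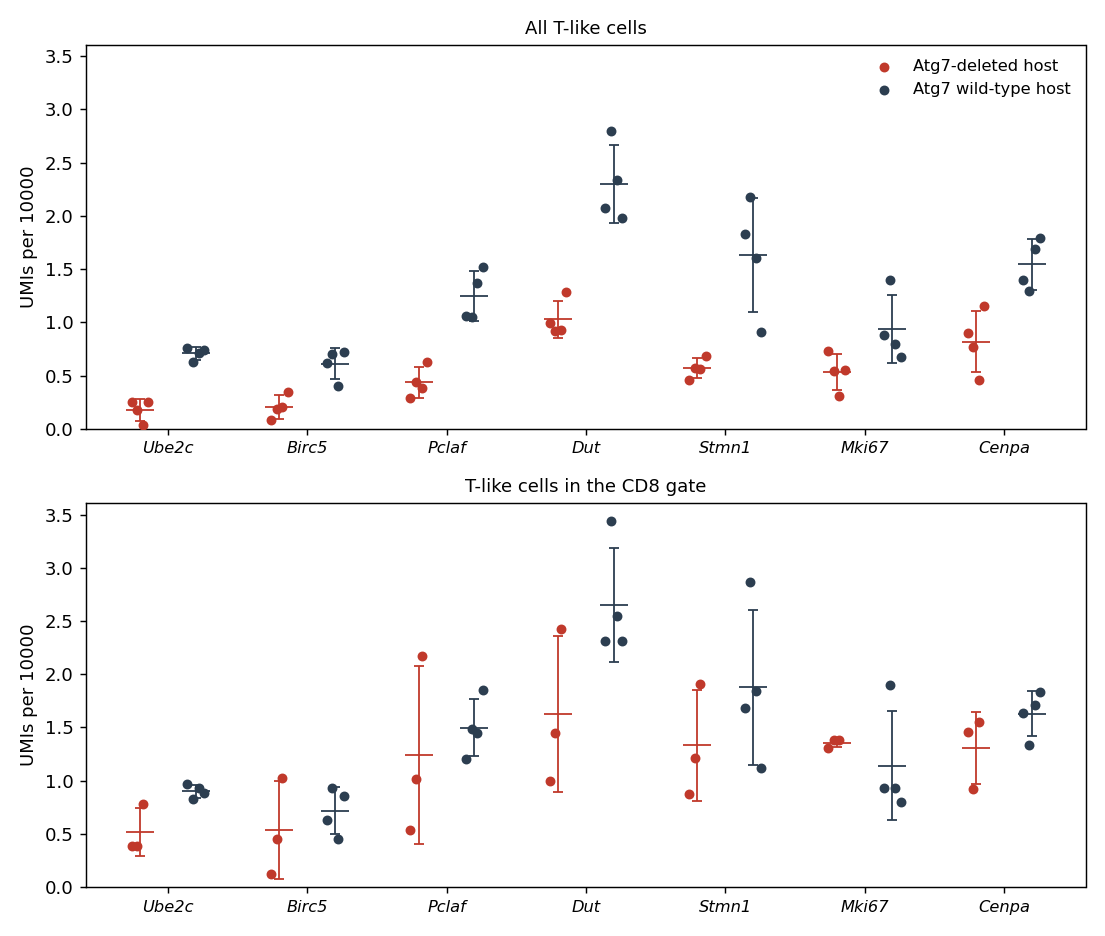
UMIs per 10000 of cell cycle genes in all T-like cells and in CD8 T cells, one point per library, deleted hosts left of wild-type hosts. For Ube2c the deleted libraries lie at 0.0338 to 0.252 in T-like cells and 0.386 to 0.778 in CD8 T cells, below wild-type libraries at 0.624 to 0.759 and 0.823 to 0.964, while for Mki67 in CD8 T cells the genotypes overlap.

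The T-like class was not composed alike in the 2 genotypes. CD8 T cells were 27.2, 32.7, 13.7 and 23.0% of T-like cells in deleted hosts and 78.7, 68.5, 74.3 and 73.9% in wild-type hosts. Over cells of every depth, the Cd4-led cluster 20 held 50.6% of T-like cells in deleted and 11.8% in wild-type hosts. The Cd8b1-led cluster 11 held 23.9 and 75.3%. Of the T-like cells with mitosis transcripts, 3 of 10, 10 of 14, 2 of 4 and 21 of 33 were CD8 T cells in deleted hosts, against 7 of 9, 37 of 42, 31 of 35 and 39 of 47 in wild-type hosts. The share of CD8 T cells thus differed between genotypes, and its part in the differences of all T-like cells was not tested.

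Within CD8 T cells the mitosis shares overlapped. They were 8.82, 17.9 and 23.1% in deleted libraries 3, 4 and 8 (34, 56 and 91 cells) and 18.9, 19.8, 17.6 and 14.7% in wild-type libraries 1, 2, 5 and 6 (37 to 266 cells). The deleted libraries spread on both sides of the wild-type range. The means were 16.6 ± 7.21% in deleted and 17.7 ± 2.24% in wild-type hosts (SD, n = 3 and 4), and leaving out 1 library moved the difference between -4.40 and 2.72 percentage points. Without thinning it was 10.5, with CD8 T cells deeper in deleted hosts (median 4737, 5900 and 4462 UMIs) than in wild-type hosts (4594, 3220, 2506.5 and 2933.5). Replication shares were 17.6, 25 and 29.7% in deleted and 18.9, 30.5, 29.0 and 19.2% in wild-type hosts. Outside the CD8 gate the mitosis share was 7.69, 3.48, 2.27 and 3.93% in deleted and 5.81, 6.56 and 8.51% in wild-type libraries 2, 5 and 6, overlapping in deleted library 3.

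By gene, part of the T-like difference was also seen outside the CD8 gate. The gate needs a Cd8 UMI, so cells of the Cd8b1-led cluster 11 can lie outside it. Cluster 11 held 202, 184 and 279 cells in wild-type libraries 2, 5 and 6, against 187, 176 and 266 CD8 T cells. In deleted libraries 3, 4, 7 and 8 it held 34, 57, 15 and 94, against 34, 56, 14 and 91. The part of such cells in the values outside the gate was not tested. Birc5 was there at 0.0651, 0.0558, 0.167 and 0.145 in deleted and 0.208, 0.269 and 0.334 in wild-type libraries 2, 5 and 6. Dut was at 0.988, 0.660, 0.687 and 0.944 in deleted and 1.40, 1.71 and 1.06 in wild-type hosts. Stmn1 was at 0.304, 0.254, 0.221 and 0.322 in deleted and 0.682, 0.929 and 0.332 in wild-type hosts. These 3 genes and Cenpa did not overlap between genotypes, with Dut and Stmn1 close in wild-type library 6, while Ube2c and Pclaf overlapped. None of 12 cell cycle genes tested outside the gate was called by limma, where 0.0206% of 4866 genes were, and Birc5 was below the filter on low levels. At an unadjusted p under 0.05 there were 4 (Cenpa, Dut, Pclaf and Stmn1), against 7.79% of all genes, and 3 of the 12 were lower without overlap, against 2.71%.

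None of 28 cell cycle genes tested in CD8 T cells was called by limma, where 0.043% of 4647 genes were. At an unadjusted p under 0.05 there were 2, Ube2c and Dut, against 8.59% of all genes. Ube2c was at 0.388, 0.386 and 0.778 in deleted and 0.964, 0.823, 0.925 and 0.883 in wild-type hosts, without overlap, where 2.3% of all genes were lower without overlap (log2 -0.62, limma adjusted p = 0.499). Dut was at 0.995, 1.45 and 2.43 in deleted and 2.31, 3.44, 2.55 and 2.31 in wild-type hosts (log2 -0.69, limma adjusted p = 0.550). Mki67 was at 1.31, 1.38 and 1.38 in deleted and 0.926, 1.90, 0.928 and 0.803 in wild-type hosts, with the deleted libraries inside the wild-type range (log2 0.27). Of the 28 genes, 23 lay below 0 with a median of -0.19, against 42.6% of all genes.

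The difference between genotypes in CD8 T cells was set against that in malignant-like cells of the same libraries. Of 22 cell cycle genes tested none was called by limma, where 0.586% of 3412 genes were, and 8 had an unadjusted p under 0.05 against 14.9% of all genes. Mki67 had a log2 difference of differences of 1.53 (SE 0.35, limma adjusted p = 0.0672) and Cenpf of 1.31 (SE 0.30, limma adjusted p = 0.0703). Both were without overlap, where 10.3% of all genes were higher without it. Mki67 in CD8 T cells exceeded that in malignant-like cells by 2.08 ± 0.862 on the log2 scale in deleted and 0.55 ± 0.298 in wild-type hosts. For 20 of the 22 genes the value was above 0, with a median of 0.65, where 43.2% of all genes lay below 0. Leaving out 1 library gave 0 to 3 called cell cycle genes, where 0 to 22 of all genes were called, with 3 on leaving out deleted library 4.

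**Figure D4:**
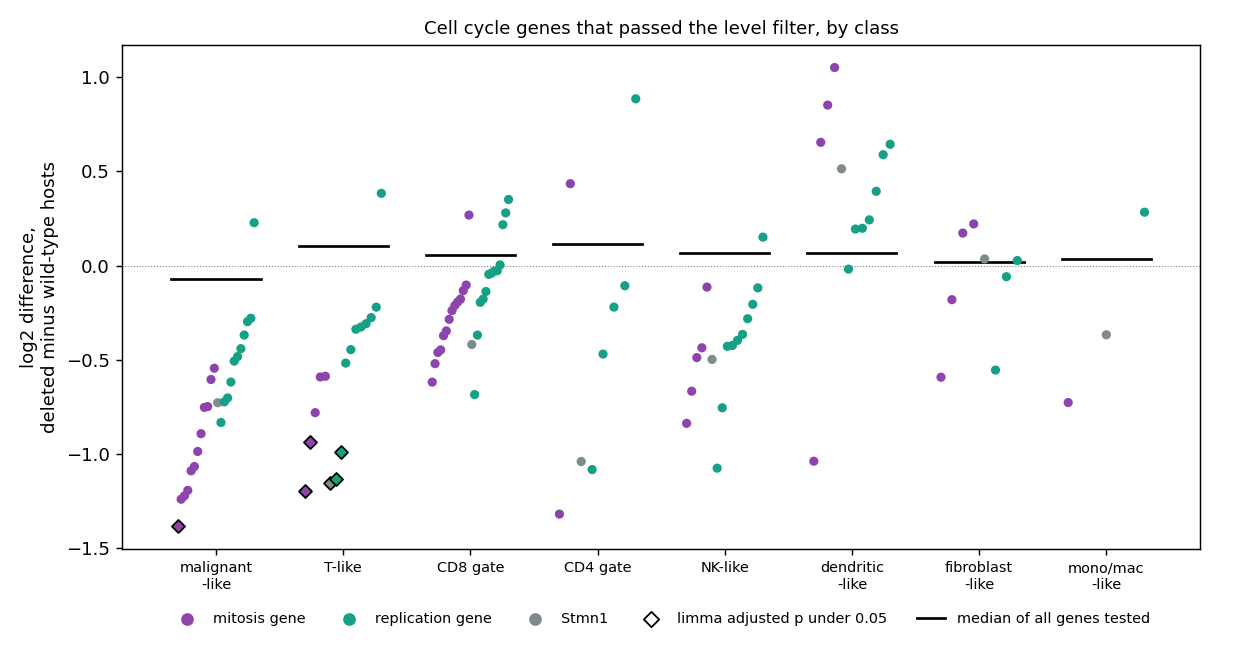
Log2 difference of level, deleted minus wild-type hosts, for each cell cycle gene that passed the filter on low levels, by class, with the median of all genes tested as a line and diamonds for limma adjusted p under 0.05. Diamonds appear in malignant-like cells (Cenpf, -1.38) and in T-like cells (5 genes, -1.20 to -0.94), and points lie mostly above 0 in dendritic-like cells (10 of 12).

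As a single gene at equal depth, Mki67 gave no difference that passed. Cells with a Mki67 UMI were 2.02 ± 2.52% of malignant-like cells in deleted and 5.77 ± 1.03% in wild-type hosts (SD, n = 4 each, exact permutation p = 0.0571, 0.229 adjusted over 8 classes). They were 4.48 ± 1.73% of T-like cells in deleted and 8.36 ± 2.63% in wild-type hosts, with the same exact permutation p. In CD8 T cells they were 5.88, 12.5 and 16.5% in deleted and 10.8, 14.4, 7.39 and 6.39% in wild-type hosts (exact permutation p = 0.571, smallest possible 0.0571). Neutrophil-like cells had a Mki67 UMI in 1.83 ± 0.367% (n = 7). Monocyte/macrophage-like cells, at 1.42 ± 0.158% in deleted and 1.79 ± 0.555% in wild-type hosts, were at that background.

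In NK-like cells the shares of cells with cell cycle transcripts were lower in deleted hosts without overlap. The mitosis share was 5.71, 1.02, 9.38 and 2.19% in deleted and 15.4, 13.4 and 11.2% in wild-type libraries 2, 5 and 6. The replication share was 8.57, 1.02, 10.9 and 7.46% in deleted and 15.4, 21.9 and 13.6% in wild-type hosts. Every deleted library lay below the wild-type ones in both measures, with library 4 lowest. None of 16 genes tested was called by limma, where 1.17% of 4682 genes were, and 4 (Pclaf, Dut, Ube2c and Birc5) had an unadjusted p under 0.05 against 13.2% of all genes. Dut was at 1.04, 0.450, 0.855 and 0.697 in deleted and 1.33, 1.43 and 1.48 in wild-type hosts, without overlap, where 5.7% of all genes were lower without overlap (log2 -0.76, limma adjusted p = 0.249).

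Transcripts of malignant cells moved with genotype in NK-like cells. Krt8 plus Krt18 in NK-like cells was 0.802, 2.87, 0 and 0.289% of the malignant-like level of the same library in deleted and 15.4, 22.4 and 16.8% in wild-type hosts. Cells with 3 or more UMIs of the 10 urothelial markers were 0% of NK-like cells in deleted and 9.23, 10.2 and 12.0% in wild-type hosts. Applied to the malignant-like levels, the wild-type shares equal 2.27, 2.90 and 2.48 UMIs per 10000 of summed mitosis transcripts, where NK-like cells of those libraries held 6.23, 7.19 and 6.06. Of the 10 urothelial markers, 3 were at 0 in each wild-type and 3 to 9 in each deleted NK-like library. Without the cells holding urothelial markers the mitosis difference was -6.24 in place of -8.74 percentage points, and without cells holding a Cd3 UMI it was -5.40. In CD8 T cells the Krt8 plus Krt18 share was 0 to 1.57% in deleted and 0.0899 to 6.66% in wild-type hosts.

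In dendritic-like cells the share with replication transcripts was higher in deleted hosts without overlap. It was 11.9, 6, 12.5 and 5.98% in deleted and 5, 5.88 and 3% in wild-type hosts, so every deleted library lay above every wild-type one, deleted library 8 narrowly. Stmn1 was seen in 9.93, 4, 8.33 and 3.42% of cells in deleted and 2.5, 0 and 1% in wild-type hosts, without overlap. The mitosis share overlapped, at 16.6, 6, 10.4 and 5.98% in deleted and 10, 8.24 and 5% in wild-type hosts, and its difference of 1.99 percentage points turned to -6.33 when 1 UMI sufficed and to -6.98 at 2000 UMIs. Top2a, which untangles replicated DNA, was at 1.44, 0.654, 0.570 and 0.258 UMIs per 10000 in deleted and 0.250, 0.238 and 0.0776 in wild-type hosts (log2 1.05, limma adjusted p = 0.254). Mki67 was at 0.969, 0.435, 0.763 and 0.210 in deleted and 0.116, 0.257 and 0.200 in wild-type hosts (log2 0.85, limma adjusted p = 0.307).

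None of 12 genes tested in dendritic-like cells was called by limma, where 0.357% of 4477 genes were, and 5 had an unadjusted p under 0.05 against 12.4% of all genes. Of the 12, 10 lay above 0, with a median of 0.45, where 43.2% of all genes lay below 0. Top2a and Ube2c were higher in deleted hosts without overlap, where 6.52% of all genes were, and Top2a in deleted library 8 was just above the highest wild-type library. Lyz2, a macrophage transcript, was at 12.3, 14.5, 2.42 and 7.03 in dendritic-like cells of deleted and 10.3, 2.13 and 4.42 in those of wild-type hosts, and its part in these differences was not tested. Top2a shares exon sequence with the small RNA gene Gm23451 on its strand.

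In monocyte/macrophage-like cells the mitosis share was 1.14, 2.27, 0.800 and 1.01% in deleted and 5.87, 5.08, 2.68 and 2.23% in wild-type hosts, overlapping in deleted library 4. These values lie within the range of the neutrophil-like cells, whose 6.25 and 4.08% came from 3 of 48 and 6 of 147 cells. In libraries with both classes the share was above the neutrophil-like one, except in library 1. Cells with both mitosis and replication transcripts were 0.491 ± 0.229% in deleted and 0.931 ± 0.372% in wild-type hosts. Neutrophil-like cells gave 0%. Whether the monocyte/macrophage-like class exceeds the background was not tested. The replication share was 3.68, 6.22, 4.80 and 3.55% in deleted and 8.25, 6.35, 4.68 and 2.83% in wild-type hosts, with overlap, against 0 to 3.30% in neutrophil-like libraries. Of 3 genes tested none was called by limma, where 0% of 4731 genes were, and 1, Cenpa, had an unadjusted p under 0.05 together with 440 of all genes (9.3%). Pcna was at 1.34, 1.96, 2.13 and 1.79 in deleted and 1.95, 1.20, 1.31 and 1.32 in wild-type hosts, overlapping. In fibroblast-like cells, of 8 genes tested none was called by limma, where 0.0827% of 4837 genes were, and 1, Birc5, had an unadjusted p under 0.05 against 12.9% of all genes. Their mitosis share was 2.13, 10.8, 4.32 and 3.48% in deleted and 5, 6.45, 4 and 10.7% in wild-type hosts. In CD4 T cells, of 8 genes tested none was called by limma, where 0.0207% of 4820 genes were, and 4 had an unadjusted p under 0.05 against 9.25% of all genes. Their mitosis share was 5.66, 1.89, 3.23 and 4.20% in deleted and 3.85, 9.52 and 3.45% in wild-type hosts, on 21 to 143 cells per library.

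Cenpa, the histone H3 variant that marks centromeres, was lower in deleted hosts without overlap in 4 classes of immune cells, T-like, NK-like, monocyte/macrophage-like and dendritic-like. Of all genes tested, 3.05, 5.7, 3.32 and 4.98% were lower without overlap in these classes. In dendritic-like cells it was at 0.786, 0.965, 0.837 and 0.900 UMIs per 10000 in deleted and 1.66, 2.05 and 2.53 in wild-type hosts (log2 -1.04, SE 0.24, limma adjusted p = 0.0848). In monocyte/macrophage-like cells it was at 0.451, 0.322, 0.147 and 0.401 in deleted and 0.742, 0.678, 0.802 and 0.557 in wild-type hosts (log2 -0.73, limma adjusted p = 0.275). That class was not composed alike, also among libraries of a genotype. Its cluster 4 held 3.47 ± 2.27% of cells in deleted and 38.9 ± 44.0% in wild-type hosts. Cluster 7 held 22.0 ± 40.5 and 2.23 ± 3.05%. Among cells deep enough for the mitosis share, cluster 4 held 496 of 630 and 665 of 866 in wild-type libraries 1 and 2. It held 4 of 299 and 7 of 672 in wild-type libraries 5 and 6. In deleted libraries 3, 4, 7 and 8 it held 10 of 1849, 71 of 1367, 5 of 125 and 45 of 1577. Cluster 7 held 1149 of 1367 in deleted library 4. In deleted libraries 3, 7 and 8 it held 51 of 1849, 3 of 125 and 4 of 1577. The part of this makeup in the Cenpa difference was not tested. The deleted dendritic-like values lay close together, and the lowest wild-type library lay well above them. In NK-like cells Cenpa was at 0.937, 0.735, 0.902 and 0.858 in deleted and 1.08, 1.33 and 1.34 in wild-type hosts. Cenpa passed in no class without a barcode set term. With it, Cenpa was called in T-like cells (limma adjusted p = 0.0269) and malignant-like cells (limma adjusted p = 0.0338), at the shares of all genes given for them, and in dendritic-like cells (limma adjusted p = 0.0434, where 1.56% of genes were called) and in monocyte/macrophage-like cells (limma adjusted p = 0.0449, where 3.99% were).

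In cells without the rest of the programme, Cenpa was lower in deleted hosts without overlap in 2 of these 4 classes. Among cells with no UMI of the other 42 genes, Cenpa was at 0.397, 0.256, 0.211 and 0.399 in monocyte/macrophage-like cells of deleted and 0.703, 0.740, 0.848 and 0.672 in those of wild-type hosts. In such dendritic-like cells it was at 0.440, 0.606, 0.870 and 0.909 in deleted and 1.15, 2.22 and 2.28 in wild-type hosts. Neither overlapped. In such T-like cells it was at 0.135, 0.729, 0.600 and 0.948 in deleted and 1.43, 0.901, 1.22 and 1.24 in wild-type hosts, overlapping in deleted library 8. In such NK-like cells it was at 0.435, 0.357, 0 and 0.857 in deleted and 1.33, 0.690 and 1.10 in wild-type hosts, also overlapping in library 8. The values rest on 95 to 1309 monocyte/macrophage-like, 23 to 91 dendritic-like, 21 to 211 T-like and 23 to 140 NK-like cells per library. The share of all genes without overlap in such cells was not taken. In such CD8 T cells the means were 0.940 in deleted and 1.05 in wild-type hosts, with overlap, and in such malignant-like cells 0.156 and 0.136. Dendritic-like Cenpa went in the direction opposite to Top2a and Mki67 of the same cells.

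**Figure D5:**
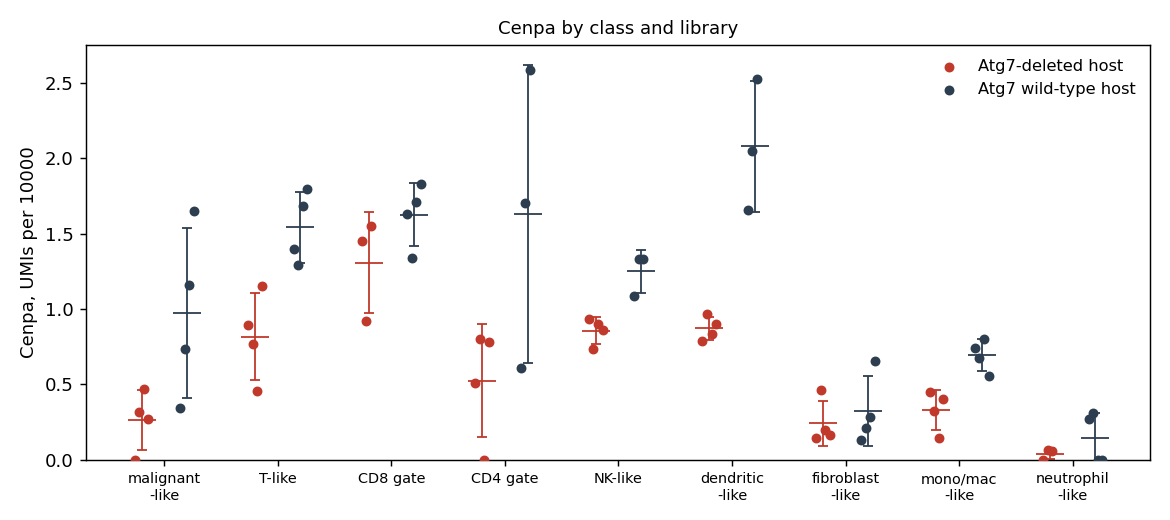
Cenpa level in UMIs per 10000 by class, one point per library, deleted hosts left of wild-type hosts. Deleted libraries lie below wild-type ones in dendritic-like cells (0.786 to 0.965 against 1.66 to 2.53) and monocyte/macrophage-like cells (0.147 to 0.451 against 0.557 to 0.802), and the genotypes overlap in CD8 T cells.

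Other cell cycle genes followed in part. Of 22 further mitosis genes, 17 of cohesin, condensin and the kinetochore, 20 of replication, 16 of the E2F, Rb, Myb and Foxm1 group, 8 inhibitors of cyclin-dependent kinases and 10 chromatin and tubulin genes, none was called by limma in any of the 8 classes fitted. Over these classes 31 of 208 tests had an unadjusted limma p under 0.05, against 8.59 to 19.9% of all genes by class. Of these 31, 10 were in malignant-like cells, all lower, among 31 genes tested there (against 11.0% of all genes in that class). In T-like cells 9 of 30 had one, 6 lower and 3 higher, against 19.9% of all genes. With a barcode set term 8 of these genes were called (limma adjusted p = 0.0193 to 0.0486). Cdkn2c, Cdkn2d, H2afx and Hmgb2 were lower in malignant-like cells, among 31 tested, where 2.75% of all genes were called. In T-like cells Gmnn, Hmgn2 and Tubb5 were lower and Cdkn1a higher, among 30 tested, where 9.85% of all genes were called. Of 12 cyclins and kinases of G1 and the S phase, Cks1b, a subunit that binds cyclin-dependent kinases, fell in T-like cells, where it was at 0.223, 0.128, 0.252 and 0.363 in deleted and 0.686, 0.645, 0.758 and 0.715 in wild-type hosts (log2 -0.97, limma adjusted p = 0.0136). The deleted libraries lay below the wild-type ones without overlap. Of 6 genes of this list tested in T-like cells 1 was called, where 2.67% of all genes were called and 0.689% lower. In NK-like cells cyclin D1 (Ccnd1) was at 0.0730, 0.154, 0 and 0.00464 in deleted and 0.608, 1.22 and 0.816 in wild-type hosts (log2 -1.87, limma adjusted p = 0.0021). Of 7 genes of this list tested in NK-like cells 1 was called, where 1.17% of all genes were. The level of Ccnd1 in malignant-like cells was 4.42. In NK-like cells the Krt8 plus Krt18 shares were also higher in wild-type hosts, and the cause of the Ccnd1 difference was not tested. With the malignant-like share of RNA subtracted its log2 difference was -0.60 (limma adjusted p = 0.308), and without the cells holding urothelial markers it was -1.27 (limma adjusted p = 0.174). With a barcode set term more genes of this list were called by limma. Ccnd2 was higher in T-like cells (limma adjusted p = 0.0348, where 9.85% of all genes were called). Cdk4 was lower in malignant-like cells (limma adjusted p = 0.0486, where 2.75% were called). Ccnd1 was lower in monocyte/macrophage-like cells (limma adjusted p = 0.0290, where 3.99% were called). The kinase inhibitor Cdkn1a was at 11.7 in monocyte/macrophage-like and 13.1 in neutrophil-like cells, against 2.50 in malignant-like and 1.47 in CD8 T cells. In T-like cells it was at 2.23 in deleted and 1.29 in wild-type hosts (limma adjusted p = 0.0939, and 0.0233 with a barcode set term). Among the 8 classes that share no cells, Ccnd2 was highest in CD4 T cells, at 3.34, and Cdkn1b likewise, at 1.05. Cdk4 (1.58), Foxm1 (0.248) and E2f1 (0.222) were highest in malignant-like cells, and Mybl2 did not exceed 0.119 in any class.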

How the data were processed

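The deposited matrices hold, per the values themselves, the natural log (ln) of 1 plus UMIs per 10000 UMIs of each cell, from 29496 cells of 8 libraries. Per the submitters' processing notes, Cell Ranger 2.1, Seurat 3.0 and mm10 were used. How the authors filtered cells is not given in the sources used here. Whole UMIs were recovered from the deposited log values (100% within 0.01 UMI), and depth is given with the samples.

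Cells with at least 200 genes and at most 10% mitochondrial UMIs were kept (28577, of which 24579 held 1000 UMIs or more). Clustering in scanpy 1.11.5 (igraph 0.11.9, Python 3.11.15) used 2000 variable genes without 148 cell cycle genes, 30 principal components, 15 neighbours and Leiden resolution 1. No doublet caller was run. Fits in limma 3.58.1 (R 4.3.3, eBayes with trend) compared log2(level + 0.25), so that log2 differences understate changes of low genes, over all genes with a mean level of at least 0.25 and in at least 3 libraries per genotype. Calls are Benjamini-Hochberg adjusted p under 0.05 over all genes tested. Since the values are logs, no count model was used. Exact permutation tests used scipy 1.17.1. The fits were tested on simulated data with known changes. Of 2-fold changes, 71% were recovered in monocyte/macrophage-like, 64% in T-like, 63% in malignant-like and 45% in fibroblast-like cells. Recovery was 40% in NK-like, 37% in dendritic-like, 35% in CD8 T and 3% in CD4 T cells. Of 4-fold changes, 41% were recovered in CD4 T cells and 88 to 100% in the other classes. A lack of calls is therefore not evidence of no difference, least of all in CD4 T cells.

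The 43 genes, the other lists and the markers were chosen with earlier results of these data known. Named are all 43 genes, genes of the other lists past the threshold, and 8 regulators by level. The permutation tests can give no p below 0.0286 with 4 against 4 libraries. Alternatives were thinning to 2000 UMIs or none, cuts of 1 or 3 UMIs, other clusterings and gates, the level filter, the pseudocount, a barcode set term, leaving out cells with markers of another class, subtracting malignant RNA, and leaving out each library. Exons of 11 of the 43 genes overlap a gene on the opposite strand and those of 3 a gene on the same strand (Mcm7, Stmn1 and Top2a).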

Additional observations from a re-analysis of the deposited data

Results flagged for a closer look

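In T-like cells, the mitosis share of deleted-host library 7 was 3.92%, while the other 3 deleted libraries lay between 8.00 and 8.33%. In malignant-like cells, the replication share of wild-type library 1 was 13.0%, below the other wild-type libraries at 23.7 to 25.1%. In fibroblast-like cells, a Mki67 UMI was found in 6.15% of cells of deleted library 4, against 0.802 to 1.01% in the other 3 deleted libraries. These 3 libraries stood apart from their group among 36 groups checked, and chance sets apart about 1 in 20 groups.

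Hmgb2, a chromatin protein abundant in dividing cells and not among the 43 genes, differed between classes in its difference between genotypes. It was at 0.286, 1.27, 1.47 and 0.483 UMIs per 10000 in malignant-like cells of deleted and 1.76, 3.58, 3.35 and 2.96 in those of wild-type hosts, against 7.24, 8.70 and 10.9 in CD8 T cells of deleted and 7.56, 14.0, 7.68 and 6.85 in those of wild-type hosts. The CD8 T minus malignant-like log2 difference was larger by 1.89 in deleted hosts (limma adjusted p = 0.0445, 0.00525 to 0.189 on leaving out 1 library).

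Cluster 9 (327 cells) was led by lymphocyte genes such as Cd8a, Prf1 and Klrd1, held macrophage markers as well, and was left unnamed and out of the comparisons. With cell cycle genes in the clustering, 260 of its cells fell in a Cd8a-led cluster named T-like, and the T-like mitosis difference was -8.21 in place of -8.48 percentage points. Its mitosis share averaged 12.0% over 6 libraries, 6.79 ± 4.12% in deleted and 17.2 ± 9.82% in wild-type hosts (SD, n = 3 each), above the 1.55% of neutrophil-like cells. The difference between genotypes in this cluster was not tested.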

How the results depend on the processing

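Differences are percentage points, deleted minus wild-type hosts, unless counts are named. Thinned to 2000 UMIs, mitosis differences moved to -13.3 (T-like), -16.1 (NK-like), -5.84 (monocyte/macrophage-like), -6.98 (dendritic-like) and -7.71 (fibroblast-like), and replication differences to -15.0 (malignant-like), -8.06 (CD8 T) and -8.65 (fibroblast-like). Unthinned, where depth differs between genotypes, mitosis differences were -29.0 (malignant-like), 10.5 (CD8 T), -6.25 (CD4 T), -7.28 (monocyte/macrophage-like) and -12.3 (fibroblast-like), and replication differences -31.8, 10.9, 10.9, 3.45 and 2.79 in the same 5 classes, -0.252 (NK-like) and 23.0 (dendritic-like). A cut of 1 UMI gave mitosis differences of -15.7 (NK-like), -9.75 (monocyte/macrophage-like), -6.33 (dendritic-like) and -6.42 (fibroblast-like) and a replication difference of -5.24 (NK-like). A cut of 3 UMIs gave -5.25 (NK-like) and -1.08 (monocyte/macrophage-like), and NK-like cells without a Cd3 UMI gave -5.40. The T-like mitosis difference stayed between -13.3 and -6.73 over these settings.

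With a barcode set term, called cell cycle genes numbered 5 in malignant-like cells (where 2.75% of all genes were called), 1 in monocyte/macrophage-like and 1 in dendritic-like cells. All genes called then numbered 128 (malignant-like), 472 (T-like), 25 (CD8 T), 2 (CD4 T), 115 (NK-like), 189 (monocyte/macrophage-like), 70 (dendritic-like), 39 (fibroblast-like) and 5 (CD8 T minus malignant-like), against 20, 128, 2, 1, 55, 0, 16, 4 and 20 without it. On levels thinned to 1000 UMIs, T-like cells had 2 called cell cycle genes, and all genes called were 8 (malignant-like), 44 (T-like), 0 (CD8 T), 2 (CD4 T), 12 (NK-like), 3 (monocyte/macrophage-like) and 0 (dendritic-like). On means of the deposited log values, called cell cycle genes were 10 in malignant-like and 1 in T-like cells, and all genes called were 810, 71, 1 (CD8 T), 0 (CD4 T) and 2 (dendritic-like). Without the level filter, T-like cells had 0 called cell cycle genes, and all genes called were 247 (malignant-like), 0 (T-like), 0 (CD8 T), 163 (NK-like), 1 (dendritic-like), 14 (fibroblast-like) and 1 (CD8 T minus malignant-like). A pseudocount of 1 gave 4 (dendritic-like) and 2 (fibroblast-like). Clustering with cell cycle genes gave 0 in CD8 T cells and 0 in the comparison of CD8 T with malignant-like cells, gates at 1000 UMIs gave 0 in that comparison, and lymphocytes without macrophage markers 0 in CD8 T cells. NK-like genes called were 7 without Cd3 cells, 12 without cells holding urothelial markers and 4 with malignant RNA subtracted, which gave 1 in monocyte/macrophage-like cells. T-like cells outside the CD8 gate gave 0 called cell cycle genes and 1 of all genes. The causes were not tested.

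Leaving out 1 library gave 0 to 1 called cell cycle genes in malignant-like cells, 3 to 5 in T-like cells and 0 to 3 in the comparison of CD8 T with malignant-like cells. All genes called were then 3 to 34 (malignant-like), 54 to 112 (T-like), 0 to 4 (CD8 T), 0 to 1 (CD4 T), 22 to 81 (NK-like), 0 to 1 (monocyte/macrophage-like), 1 to 18 (dendritic-like), 2 to 5 (fibroblast-like) and 0 to 22 (CD8 T minus malignant-like). The T-like mitosis difference ranged from -9.32 to -7.29 and the malignant-like one from -19.5 to -12.1. At resolution 0.5, 1437 T-like and 888 NK-like cells fell in 1 unnamed cluster and 361 T-like cells in 2 T-like ones, and T and NK values were not taken. No paired analysis was possible because the 2 genotypes share no library numbers. Alternatives on the Cd3 and macrophage markers, malignant RNA and the CD8 gate were chosen after seeing the data. In malignant-like cells of deleted hosts, 32 to 104 cells per library limit what can be seen.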
